A study of Mus musculus with 26 samples.

Results

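The 4 interleukin-1 receptor-associated kinases (Irak1, Irak2, Irak3 and Irak4) sit directly below Toll-like and interleukin-1 receptors. They are described here by the open chromatin regions (ATAC-seq peaks) of mouse Kupffer cells (macrophages that live in the liver) that were assigned to these genes. The members are all peaks whose nearest gene, as named in the deposited peak tables, was Irak1, Irak2, Irak3 or Irak4. The table of the inbred strains held 38 such peaks of 96381 (1 at Irak1, 19 at Irak2, 12 at Irak3 and 6 at Irak4), and the table of the hybrid held 62 of 217456 (1, 31, 23 and 7, in the same order of genes).

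LPS was given to C57BL/6J (n = 3), BALB/cJ (n = 2) and hybrid CB6F1/J mice (n = 5), and A/J, C57BL/6J, BALB/cJ and CB6F1/J mice served as controls (n = 4 each). CB6F1/J is the first generation of a cross between a BALB/cJ female and a C57BL/6J male. All mice were young adult males. The labels give every sample one treatment text, by which LPS mice were fasted overnight and received E. coli lipopolysaccharide (LPS) into the peritoneum at 0.1 mg/kg for 2 h, and controls were fasted alike with no injection, so the injection itself was not matched by a vehicle. The columns of the hybrid controls are named chow, and no source used here speaks of fasting for the A/J mice apart from that shared text. Which inbred LPS libraries belong to which strain was taken from the labels and column names, since a legend of the study gives the sizes of these groups the other way round. All cells were sorted as Kupffer cells from digested livers, and the sources used here name no engineered change in any of these lines. The strain groups differ over the whole genome, not at the Irak loci alone. The study had itself used Irak3 as an example of a gene with a strain difference, so the strain values of Irak3 below come from the samples on which that example was chosen and are not independent evidence of it.

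After a ligand binds a Toll-like or interleukin-1 receptor, the adaptor MyD88 gathers IRAK4, whose kinase activity starts the complex, and IRAK4 then acts on IRAK1 and IRAK2, which pass the signal to the ubiquitin ligase TRAF6 and on to NF-kappa B and the MAP kinases. IRAK3, also called IRAK-M, is found mainly in monocytes and macrophages, lacks strong kinase activity and is known as a brake on this pathway and as a part of endotoxin tolerance. IRAK2 keeps signalling going at later times. Kupffer cells meet bacterial products from the portal blood, so both the kinases and their brake are of interest in them.

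Each peak is named by its gene and by the distance in bp of its centre from the nearest annotated start of that gene. Positive distances lie inside or beyond the gene. At Irak3, negative distances are counted from another start than positive ones, so distances of opposite sign are not on one scale. Irak3 +54 is at chr10:120201443-120201643 and Irak3 -346 at chr10:120202376-120202576. Values are normalised counts, that is, the number of sequence tags around the peak centre, scaled for sequencing depth and composition. A value thus measures how often the transposase cut there and not RNA or protein. The study describes counting in 1000 bp around each centre, but the counts of close neighbours are too unlike for that width. Irak3 +10559 had a mean of 25.8 in CB6F1/J LPS by perfectly mapped tags, described below. Irak3 +10225, a peak that such a window around +10559 would take in, had 109.3. The width behind the deposited counts is not known here. Of the inbred members, 5 lay at promoters, 32 in introns and 1 upstream between genes, over distances from -2710 to 37874 bp. If windows of 1000 bp are assumed, those of 28 of the 38 peaks would share part of their sequence with a neighbouring peak. Whether such neighbours share tags depends on the width used.

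The total of tags in peaks was 2079334 to 7536816 in 16 of the inbred libraries and 47196703 in BALB/cJ control replicate 4. The hybrid libraries held 11627814 to 25368586 perfectly mapped tags in peaks. All 4 C57BL/6J control libraries held no mitochondrial tag in peaks (0.0%), against 18.6 to 28.7% of tags in peaks in every other inbred library, and only nuclear peaks entered the fits. Library names carried one date for the controls and other dates for each LPS group, so LPS and library date cannot be told apart, and neither can strain and date between the LPS groups. All 7 Kupffer cell marker genes looked at (Clec4f, Vsig4, Cd5l, Timd4, Marco, Adgre1 and Csf1r) had a promoter peak, and their summed level was 329.7 to 458 in C57BL/6J LPS and 299.9 to 353 in BALB/cJ LPS, against 582 to 612 in A/J control, 533 to 640.3 in C57BL/6J control and 591 to 695 in BALB/cJ control. None of the 3 monocyte (Ly6c2, Ccr2, Chil3) or 4 hepatocyte (Alb, Apoa1, Cps1, Ttr) marker genes had one in the inbred table. Neutrophils had a promoter peak at 1 of 4 genes (S100a8), with 22.5 to 31.4 in C57BL/6J LPS and 36.9 to 38.3 in BALB/cJ LPS, against 20.04 to 33.9 in A/J control, 29.6 to 63.8 in C57BL/6J control and 58.5 to 89.9 in BALB/cJ control. Sinusoidal endothelium had one at 2 of 4 genes, with sums of 12.6 to 25.3 in the LPS libraries against 25.04 to 88.6 in the controls, and stellate cells at 1 of 4, with 3.48 to 7.02 in the LPS libraries against 7.65 to 28.4 in the controls.

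The sequences of the peaks on which the results turn are printed here so that the letters can be seen beside the values. They are the plus strand of mm10 from 5′ to 3′, and capitals mark matches, on either strand, to AP-1 (TGANTCA), kappa B (GGGNNNNNCC) or PU.1 (GAGGAAG). The first is the Irak3 peak that differed between strains, at +35566 bp in the seventh intron (chr10:120165931-120166131), with kappa B matches in capitals.
Irak3 +35566: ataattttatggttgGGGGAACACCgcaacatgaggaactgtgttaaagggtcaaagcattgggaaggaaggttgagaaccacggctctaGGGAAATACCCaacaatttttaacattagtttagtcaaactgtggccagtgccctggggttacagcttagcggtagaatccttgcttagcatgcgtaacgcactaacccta
The next 2 lie in the first intron of Irak3, at +12881 bp (chr10:120188616-120188816) and +10198 bp (chr10:120191299-120191499). The first of them holds an AP-1 match and the other held none of the 6 motifs searched.
Irak3 +12881: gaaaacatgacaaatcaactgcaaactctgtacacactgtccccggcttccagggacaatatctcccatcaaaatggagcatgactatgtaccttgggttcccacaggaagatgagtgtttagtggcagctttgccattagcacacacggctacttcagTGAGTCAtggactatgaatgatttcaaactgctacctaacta
Irak3 +10198: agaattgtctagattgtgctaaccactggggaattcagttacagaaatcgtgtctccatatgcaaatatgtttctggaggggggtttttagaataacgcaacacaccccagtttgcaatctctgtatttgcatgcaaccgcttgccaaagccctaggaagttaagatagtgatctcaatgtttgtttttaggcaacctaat
The last 3 are LPS-responsive peaks of the kinases, in the second intron of Irak2 at +16707 bp (chr6:113655074-113655274, kappa B then AP-1) and +11108 bp (chr6:113649475-113649675, PU.1 overlapping kappa B), and in the tenth intron of Irak4 at +21441 bp (chr15:94565001-94565201, AP-1).
Irak2 +16707: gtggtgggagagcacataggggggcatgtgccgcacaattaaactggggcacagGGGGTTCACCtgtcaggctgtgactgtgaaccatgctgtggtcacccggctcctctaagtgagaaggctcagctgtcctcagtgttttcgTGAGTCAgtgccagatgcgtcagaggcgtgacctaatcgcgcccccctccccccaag
Irak2 +11108: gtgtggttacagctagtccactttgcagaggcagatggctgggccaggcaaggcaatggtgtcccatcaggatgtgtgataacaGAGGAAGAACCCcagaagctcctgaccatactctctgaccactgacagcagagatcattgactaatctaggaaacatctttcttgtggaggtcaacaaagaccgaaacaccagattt
Irak4 +21441: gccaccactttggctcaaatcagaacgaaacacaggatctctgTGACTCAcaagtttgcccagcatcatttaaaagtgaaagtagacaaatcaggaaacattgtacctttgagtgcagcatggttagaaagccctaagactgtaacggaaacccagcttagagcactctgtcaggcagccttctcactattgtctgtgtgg

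Over all 38 inbred members, an AP-1 match was present in 6 peaks, against 14.3% of all 96238 peaks on the nuclear chromosomes. A kappa B match was present in 17 members, against 33.0% of all peaks, and a PU.1 match in 8, against 20.9%. C/EBP (TTGNNCAA), an interferon-stimulated response element (GAAANNGAAA) and a MAF core site (TGCTGAC) were found in 3, 2 and 2 members, against 5.80%, 4.30% and 5.50% of all peaks. Kappa B matches can overlap PU.1 matches, as in Irak2 +11108, and a match is a string of letters and not a measured binding site.

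The promoters of the 4 genes were open in every library. Irak4, the kinase that starts the complex, had the highest promoter value, with a mean of 267 normalised counts over the 17 inbred libraries, followed by Irak2 with 162, Irak3 with 120.1 and Irak1 with 98.1. These are counts in windows of equal length. Whether the Irak3 window takes in tags of the neighbouring peaks at +365 and -346 bp depends on that length.

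**Figure D1:**
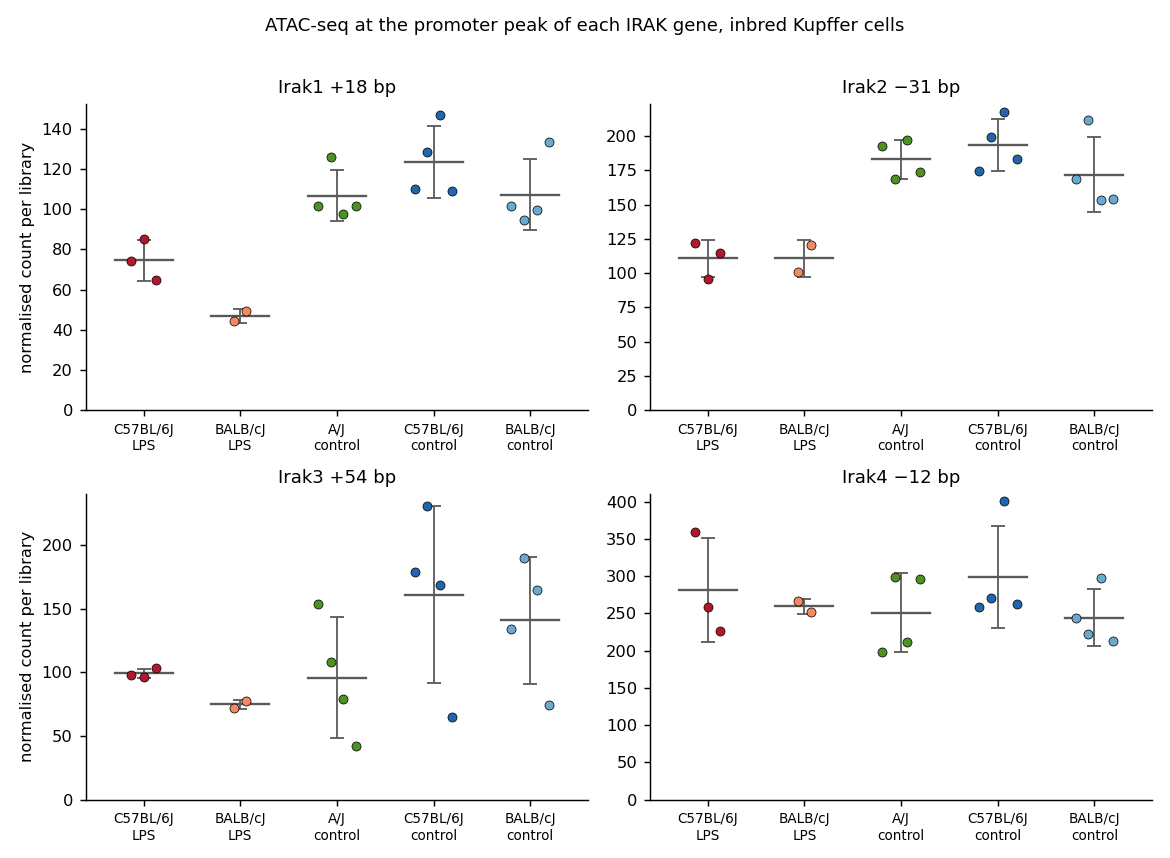
Normalised ATAC-seq counts at the promoter peak of each gene (y axis, tags around the peak centre, linear, from 0) in the 5 inbred groups (x axis). Points are libraries, lines are means and bars are SD, and the LPS libraries of Irak1 and Irak2 lie below the control libraries while those of Irak4 lie among them.

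Among the controls, Irak4 -12 ranged from 199 to 299 in A/J, 259 to 401 in C57BL/6J and 213 to 298 in BALB/cJ, and Irak2 -31 from 168 to 197 in A/J, 175 to 217 in C57BL/6J and 153 to 212 in BALB/cJ. The strain ranges overlapped at both promoters. Irak1 +18 had 102, 126, 97.7 and 102 in A/J control, 110.2, 128, 147 and 109 in C57BL/6J control and 102, 94.6, 99.3 and 133 in BALB/cJ control. These ranges overlapped too.

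Irak3 +54 had 154, 108, 79.4 and 42.3 in A/J control, 179, 231, 169 and 65.2 in C57BL/6J control and 134, 190.2, 165 and 74.4 in BALB/cJ control. Replicate 4 was the lowest library of each strain at this promoter, and the spread within a strain was as wide as any gap between strains. The C57BL/6J over BALB/cJ log2 ratios of the Irak1, Irak2, Irak3 and Irak4 promoters were 0.18, 0.17, 0.22 and 0.30, and none was called. A call here is a Benjamini-Hochberg adjusted p under 0.05 over all peaks tested, by edgeR's quasi-likelihood test, with an absolute log2 ratio above 1. Strain comparisons were tested where the mean normalised count was above 16.

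The question of the strain comparison was whether the IRAK loci are open to the same degree in Kupffer cells of the 3 strains. In C57BL/6J control against BALB/cJ control, 23 of the 38 members were deep enough to test and 1 was called, Irak3 +35566, beside 7.29% of all peaks tested. Irak3 +35566 had 105, 77.0, 130.1 and 82.4 normalised counts in C57BL/6J control, against 31.6, 41.0, 25.5 and 16.6 in BALB/cJ control. Every C57BL/6J control library lay above every BALB/cJ control library. The means were 98.6 ± 24.2 in C57BL/6J and 28.7 ± 10.3 in BALB/cJ (SD, n = 4 each), a log2 ratio of 1.86 with SE 0.297 and an adjusted p of 1.76e-05 by edgeR's quasi-likelihood test.

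The A/J mean lay between those of the other strains at this peak. Irak3 +35566 had 35.5, 67.8, 44.8 and 20.3 in A/J control, a mean of 42.1 ± 19.9 (SD, n = 4). All 4 A/J control libraries lay below the lowest C57BL/6J control library, and they overlapped the BALB/cJ control libraries. A/J over C57BL/6J gave a log2 ratio of -1.21 with SE 0.296 and an adjusted p of 0.00524, which was 1 call among 22 members tested, beside 7.16% of all peaks tested. The C57BL/6J LPS libraries also lay above the BALB/cJ LPS libraries at +35566, as described below. The S100a8 level, highest in BALB/cJ control, and the missing mitochondrial tags of C57BL/6J control moved with the control strain comparisons. Their part in the calls was not tested. Without A/J control replicate 4, the lowest of its group, the log2 ratio was -0.96 and the call was lost. A/J over BALB/cJ gave 0.66 with an adjusted p of 0.27 (edgeR).

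The other called strain difference was at Irak2. In A/J control against BALB/cJ control, 1 of 21 members tested was called, Irak2 +21393 in the second intron (chr6:113659760-113659960), beside 4.58% of all peaks tested. It had 13.9, 16.4, 28.5 and 12.5 in A/J control, against 31.6, 48.8, 55.0 and 43.3 in BALB/cJ control. The groups did not overlap, and A/J was lower, with a log2 ratio of -1.36, SE 0.344 and adjusted p 0.0111 by edgeR's quasi-likelihood test. C57BL/6J control had 24.3, 22.5, 28.6 and 19.9 at the same peak, also below all BALB/cJ control libraries, but its log2 ratio over BALB/cJ of -0.90 had an adjusted p of 0.0696 and was not called.

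The 1 call in each comparison lay near the share called over all peaks. Medians of the log2 ratios of the members tested were 0.16 for C57BL/6J over BALB/cJ, -0.13 for A/J over BALB/cJ and -0.26 for A/J over C57BL/6J, beside 0.02, 0.02 and -0.01 over all peaks tested.

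Several Irak3 peaks were too low in controls to be tested between strains and are given as values. Irak3 +10198 in the first intron had 0, 1.09, 2.04 and 3.13 in A/J control, 19.1, 16.05, 23.4 and 21.3 in C57BL/6J control and 0, 5.85, 1.34 and 1.38 in BALB/cJ control. C57BL/6J control libraries were thus all above those of both other strains. Its mean over C57BL/6J and BALB/cJ control libraries was 11.1, under the minimum of 16, and it became a call in both comparisons that involve C57BL/6J once no minimum was applied. Irak3 +33936 had 6.17 to 17.5 in A/J control, 8.02 to 31.3 in C57BL/6J control and 6.59 to 13.7 in BALB/cJ control, and these groups overlapped. Irak3 +12148 had 3.28 to 8.14 in A/J control, 11.2 to 22.0 in C57BL/6J control and 5.27 to 9.75 in BALB/cJ control, and C57BL/6J control lay above the other strains without overlap.

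The strain order at Irak3 was not shared by all its peaks. The furthest intronic peak, Irak3 +37874, had 139, 119, 185 and 185 in A/J control, 168, 156, 192 and 152 in C57BL/6J control and 112, 177, 156 and 197 in BALB/cJ control, and the 3 strains overlapped. Of the 5 Irak3 peaks tested for C57BL/6J over BALB/cJ in control, 5 had a ratio above 0, from 0.04 to 1.86. Peak lists made by the authors from pairs of reproducible libraries held 3 of the 12 Irak3 peaks for A/J control, 9 for C57BL/6J control and 8 for BALB/cJ control.

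**Figure D2:**
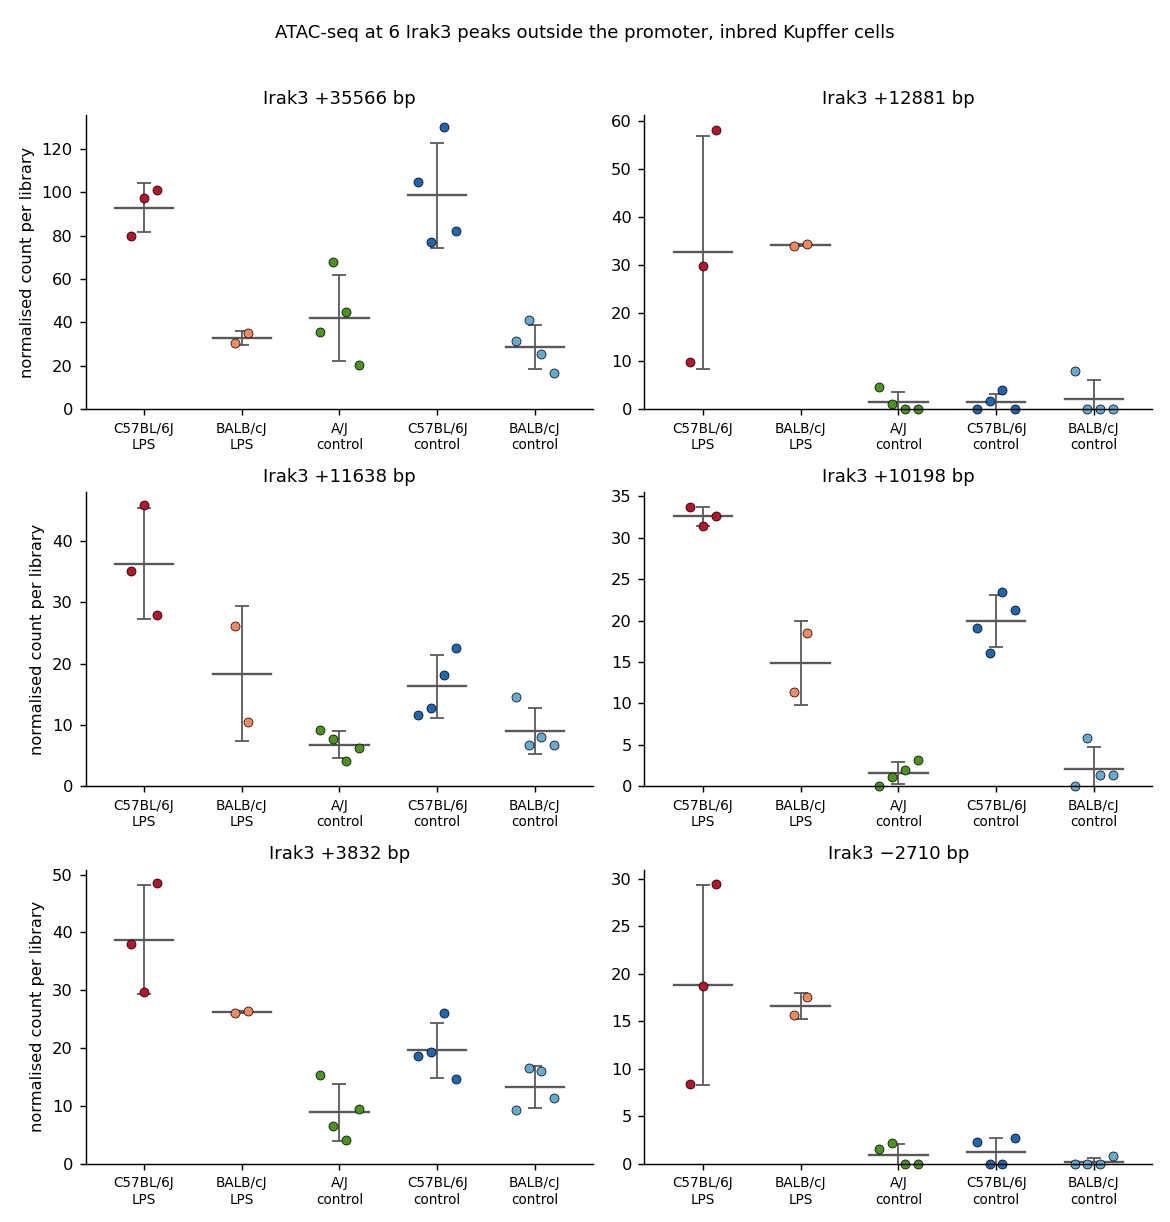
Normalised counts (y axis, linear, from 0) at 6 Irak3 peaks in the 5 inbred groups (x axis), with libraries as points, means as lines and SD as bars. At +35566 the C57BL/6J libraries lie above those of the other strains with and without LPS, and at +12881 and -2710 the LPS libraries lie between 8.43 and 58.1 while no control library is above 7.91.

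The same strain contrast after LPS gave 1 call in 27 members tested, beside 5.28% of all peaks tested, and it was again Irak3 +35566. This peak had 80.1, 97.6 and 101 in C57BL/6J LPS, against 30.5 and 35.2 in BALB/cJ LPS. No BALB/cJ LPS library came near the lowest of C57BL/6J LPS, and the log2 ratio was 1.51 with SE 0.383 and an adjusted p of 0.0114 by edgeR's quasi-likelihood test. The call was lost when either BALB/cJ LPS library was left out, which leaves 1 library in that group. Irak2 +16707 (-1.28, adjusted p 0.11), Irak3 +10198 (1.12, adjusted p 0.25) and Irak3 +11638 (0.98, adjusted p 0.257) were not called, and the median of the members was 0.11, beside 0.01 over all peaks tested.

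The LPS comparisons asked which IRAK regions opened or closed within 2 h of the injection. In bulk chromatin of sorted cells, a lower value can come from fewer cells with the region open or from fewer cuts per cell, and the 2 cannot be told apart. The Kupffer cell, endothelial and stellate marker sums given above were lower in LPS in both inbred strains, and S100a8 was lower in BALB/cJ LPS than in BALB/cJ control without overlap. Within the Kupffer cell sum of C57BL/6J, Marco had a higher mean in LPS (52.7) than in control (48.3). The means of Clec4f, Vsig4, Cd5l, Timd4, Adgre1 and Csf1r were lower in LPS there. In the hybrid, by perfectly mapped tags, the Kupffer cell sum was 1010.4 to 1399 in CB6F1/J LPS, against 1999 to 2248 in CB6F1/J control. The stellate sum was 32.4 to 78.1 against 82.1 to 112, while those of neutrophils and endothelium overlapped. Monocytes had a promoter peak at 1 of 3 genes in the hybrid. Their sum was 1.04 to 9.81 in CB6F1/J LPS against 0.94 to 26.9 in CB6F1/J control, also with overlap. The part of these differences in the results was not tested.

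In C57BL/6J, 6 of the 38 members tested were called higher and 1 lower in LPS than in control, beside 12.3% of all peaks called higher and 8.07% lower (20.4% either way). In BALB/cJ, 6 of 37 members tested were higher and 4 lower, beside 16.2% higher and 11.3% lower (27.6% either way). Median log2 ratios of the members were -0.09 in C57BL/6J and -0.05 in BALB/cJ, beside -0.03 and -0.07 over all peaks tested.

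In both inbred strains the largest called log2 gains of the family were at Irak3, the inhibitory member. Irak3 +12881 had 9.83, 29.7 and 58.1 in C57BL/6J LPS, against 0, 1.60, 3.90 and 0 in C57BL/6J control. In BALB/cJ the same peak had 34.0 and 34.3 in LPS, against 7.91, 0, 0 and 0.0920 in control. No control library of either strain reached the lowest LPS library, and the log2 ratios were 4.83 (SE 0.92, adjusted p 0.000187) in C57BL/6J and 5.17 (SE 0.948, adjusted p 7.1e-05) in BALB/cJ by edgeR's quasi-likelihood test. DESeq2 did not call the BALB/cJ gain (log2 ratio 4.29, adjusted p 0.0566).

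Upstream of the gene, Irak3 -2710 (chr10:120204740-120204940) had 8.43, 18.7 and 29.5 in C57BL/6J LPS, against 2.32, 0, 0 and 2.66 in C57BL/6J control. In BALB/cJ it had 15.7 and 17.6 in LPS, against 0, 0, 0 and 0.83 in control. The groups did not overlap in either strain, with log2 ratios of 3.64 (SE 0.763, adjusted p 0.000545) in C57BL/6J and 4.71 (SE 0.831, adjusted p 4.31e-05) in BALB/cJ (edgeR). Fold sizes at these 2 peaks rest on control counts close to 0, so the ratios depend on how such counts are treated. The BALB/cJ call at -2710 was lost without either BALB/cJ LPS library.

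2 further Irak3 peaks in the first intron were called in 1 strain each. Irak3 +10198 had 11.3 and 18.5 in BALB/cJ LPS, against 0, 5.85, 1.34 and 1.38 in BALB/cJ control, a log2 ratio of 2.89 (SE 0.612, adjusted p 0.000395). In C57BL/6J, where control was already open, it had 33.7, 31.4 and 32.7 in LPS, against 19.1, 16.05, 23.4 and 21.3 in control. Those groups did not overlap either, but the ratio of 0.70 had an adjusted p of 0.251 and was not called by edgeR's quasi-likelihood test. The BALB/cJ call was lost without BALB/cJ LPS replicate 2.

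Irak3 +11638 (chr10:120189859-120190059) had 35.1, 45.9 and 27.9 in C57BL/6J LPS, against 11.6, 12.8, 18.2 and 22.6 in C57BL/6J control, a log2 ratio of 1.17 (SE 0.405, adjusted p 0.0288). BALB/cJ had 26.1 and 10.6 in LPS, against 14.5, 6.83, 8.05 and 6.73 in control, and the groups overlapped (1.11, adjusted p 0.072, edgeR). The C57BL/6J call was lost without C57BL/6J control replicate 1, control replicate 2 or LPS replicate 2. Irak3 +3832 had 37.9, 29.7 and 48.6 in C57BL/6J LPS, against 18.6, 19.3, 26.01 and 14.6 in C57BL/6J control, and its ratio of 0.99 (adjusted p 0.0438) lay just inside the fold threshold and was not called.

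The Irak3 peak that differed between strains was not called after LPS. Irak3 +35566 had 80.1, 97.6 and 101 in C57BL/6J LPS, inside the control range of 77.0 to 130.1 of that strain, and 30.5 and 35.2 in BALB/cJ LPS, inside the control range of 16.6 to 41.0. The log2 ratio of LPS over control was -0.09 in C57BL/6J. It was 0.27 in BALB/cJ. Irak3 +37874 likewise overlapped between LPS and control in both strains.

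At the Irak3 promoter, +54 had 98.3, 96.8 and 104 in C57BL/6J LPS, against 179, 231, 169 and 65.2 in C57BL/6J control. It had 72.3 and 77.4 in BALB/cJ LPS, against 134, 190.2, 165 and 74.4 in BALB/cJ control. In each strain 3 of 4 control libraries were above all LPS libraries and replicate 4 was within or below their range. The log2 ratios of -0.69 (adjusted p 0.104) and -0.88 (adjusted p 0.064) were not called by edgeR's quasi-likelihood test. The promoter-flanking peak Irak3 -346 had 3.48 and 5.28 in BALB/cJ LPS, against 11.9, 20.5, 21.5 and 10.7 in BALB/cJ control. It was called lower in BALB/cJ (-1.81, SE 0.702, adjusted p 0.0445, edgeR), a call that held in 5 of 13 alternative settings.

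At Irak2, the kinase of sustained signalling, gains and losses lay within the same intron. Irak2 +16707 had 11.2, 16.1 and 35.0 in C57BL/6J LPS, against 8.70, 4.81, 5.20 and 5.32 in C57BL/6J control. In BALB/cJ it had 45.3 and 58.9 in LPS, against 14.5, 5.85, 10.7 and 10.96 in control. All LPS libraries lay above the controls of their strain, and the peak was called in both, with log2 ratios of 1.73 (SE 0.48, adjusted p 0.00693) and 2.31 (SE 0.457, adjusted p 0.000185) by edgeR's quasi-likelihood test. The C57BL/6J call was lost without LPS replicate 3, which had the highest value.

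Irak2 +11108 had 42.1, 88.3 and 58.9 in C57BL/6J LPS, against 34.2, 32.1, 19.5 and 11.97 in C57BL/6J control, and was called higher (1.35, SE 0.337, adjusted p 0.00299). BALB/cJ had 74.9 and 87.9 in LPS, against 30.3, 63.4, 38.9 and 32.1 in control, also without overlap. The BALB/cJ ratio of 1.00 with an adjusted p of 0.027 was on the fold threshold and not called (edgeR).

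Irak2 +11804, a near neighbour of +11108 in the second intron, went the other way. It had 30.9, 22.9 and 22.3 in C57BL/6J LPS, against 56.8, 41.7, 55.9 and 46.5 in C57BL/6J control (-1.02, SE 0.286, adjusted p 0.00766). BALB/cJ had 34.0 and 31.7 in LPS, against 84.4, 54.6, 76.5 and 74.2 in control (-1.14, SE 0.311, adjusted p 0.00476, edgeR). LPS libraries were below every control library of their strain in both cases. The C57BL/6J call held in 5 of 14 alternative settings, and the BALB/cJ call was lost without BALB/cJ LPS replicate 2.

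The promoters of Irak2 and Irak1 were lower in LPS in both strains. Irak2 -31 had 122, 96.0 and 115 in C57BL/6J LPS, against 175, 199, 217 and 183 in C57BL/6J control, and 101 and 120.5 in BALB/cJ LPS, against 169, 212, 153 and 154 in BALB/cJ control. The groups did not overlap, and the log2 ratios of -0.80 (adjusted p 0.000788) and -0.63 (adjusted p 0.0128) passed the adjusted p by edgeR's quasi-likelihood test but not the fold threshold.

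Irak1 +18 had 74.4, 84.9 and 64.5 in C57BL/6J LPS, against 110.2, 128, 147 and 109 in C57BL/6J control. In BALB/cJ it had 44.4 and 49.2 in LPS, against 102, 94.6, 99.3 and 133 in control. All LPS libraries lay below the controls of their strain, and the promoter was called lower in BALB/cJ (-1.21, SE 0.249, adjusted p 0.000283), while the C57BL/6J ratio of -0.72 (adjusted p 0.00962, edgeR) did not pass the fold threshold. The BALB/cJ call held in 13 of 13 alternative settings.

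At Irak4, LPS and control overlapped at the promoter, while peaks at the far end of the gene were called higher in LPS. Irak4 -12 had 359.5, 258 and 227 in C57BL/6J LPS, against 259, 271, 401 and 263 in C57BL/6J control, and 267 and 252 in BALB/cJ LPS, against 244, 222, 298 and 213 in BALB/cJ control. The log2 ratios were -0.09 in C57BL/6J and 0.10 in BALB/cJ.

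Irak4 +21441 had 5.62, 24.6 and 17.5 in C57BL/6J LPS, against 2.90, 0, 3.90 and 0 in C57BL/6J control. In BALB/cJ it had 6.10 and 17.6 in LPS, against 0, 1.95, 5.37 and 1.29 in control. The LPS libraries were above the controls of their strain, with log2 ratios of 3.01 (SE 0.754, adjusted p 0.00302) and 2.66 (SE 0.799, adjusted p 0.00959) by edgeR's quasi-likelihood test. A/J control had 13.9, 8.75, 6.10 and 11.0 at this peak, above all other control libraries, at a depth too low for the strain test. The BALB/cJ LPS call was lost without BALB/cJ LPS replicate 2.

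Irak4 +22394 (chr15:94565954-94566154), in an ORR1D2 element of the LTR class next to it, had 74.9 and 55.4 in BALB/cJ LPS, against 25.1, 28.3, 22.8 and 31.0 in BALB/cJ control, a log2 ratio of 1.25 (SE 0.342, adjusted p 0.00476). In C57BL/6J it had 77.2, 38.2 and 52.6 in LPS, against 28.4, 25.7, 37.7 and 26.6 in control. Neither pair of groups overlapped, but the C57BL/6J ratio of 0.90 (adjusted p 0.0355, edgeR) was under the fold threshold. The BALB/cJ call was lost without BALB/cJ LPS replicate 1.

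Irak4 +857, in the first intron, was not detected in either BALB/cJ LPS library, against 10.5, 5.85, 4.03 and 4.51 in BALB/cJ control. With a floor of 3 tags over the LPS group, the level was at least 4.75-fold lower in BALB/cJ LPS, and the peak was called lower with an adjusted p of 0.00257 by edgeR's quasi-likelihood test. That call held in 8 of 13 alternative settings. C57BL/6J had 2.81, 9.34 and 4.78 in LPS, against 9.86, 12.8, 16.9 and 15.96 in control, also without overlap and not called (-1.21, adjusted p 0.143).

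**Figure D3:**
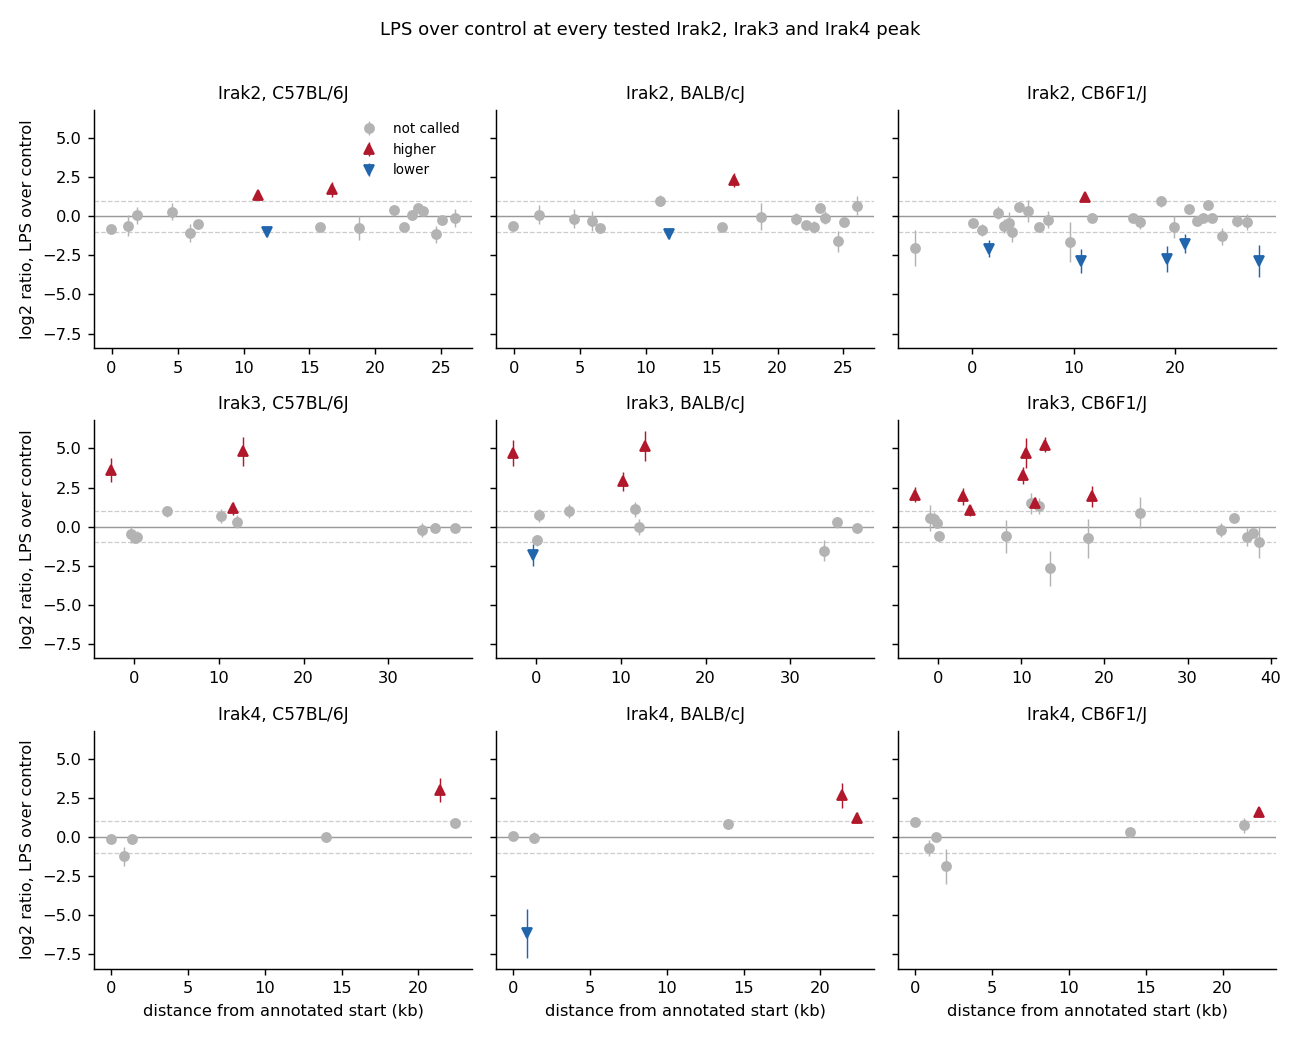
Log2 ratio of LPS over control with its SE (y axis) against distance from the nearest annotated start in kb (x axis). Panels show Irak2, Irak3 and Irak4 in C57BL/6J, BALB/cJ and CB6F1/J. Called peaks are triangles, and dashed lines mark a log2 ratio of 1 each way. The called gains of Irak3 lie upstream and in the first intron, with +35566 near 0 in C57BL/6J, while gains and losses mix along Irak2. The lowest point, Irak4 +857 in BALB/cJ, is a fitted ratio against LPS libraries without a tag and sets no bound.

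Whether C57BL/6J and BALB/cJ responded differently was tested directly as the difference of the log2 LPS ratios. None of the 38 members was called by edgeR's quasi-likelihood test, beside 0.145% of all peaks tested, and none was called by DESeq2. An unadjusted p under 0.05 was seen in 3 members. The smallest was Irak3 +10198, where the C57BL/6J ratio minus the BALB/cJ ratio was -2.19 (SE 0.755, unadjusted p 0.00644, adjusted p 0.413), and the others were Irak3 +365 (-1.38, adjusted p 0.55) and Irak4 +857, which rests on the 2 BALB/cJ libraries without a tag (adjusted p 0.486). The calls made in 1 strain only are therefore not shown to differ between the strains.

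The hybrid carries both genomes in one nucleus. Its table counts all tags, perfectly mapped tags and, of these, tags lying across a parental variant, and the control columns of the first 2 kinds did not match each other. Perfectly mapped tags came to 96.0 to 96.3% of all tags in the LPS libraries, but to 79.2 to 213% of them in the control libraries, and they exceeded all tags at 81812 to 151033 peaks of a control library, against 24 to 30 peaks of an LPS library. A subset cannot be larger than its whole, so the 2 kinds of control columns cannot both be what they are labelled. Which kind is at fault is not known here. The hybrid results below rest on perfectly mapped tags, with values by total tags given beside them. Variant-spanning tags exceeded perfectly mapped tags at no more than 435 peaks of any library. The choice bears on the direction of many hybrid ratios, since with total tags the LPS ratio changed sign at 24 of the 62 members. Of the 15 members called by perfectly mapped tags, 5 were called in the same direction by total tags (Irak3 +12879, +10559, +3015 and -2731, and Irak2 +11162), and 4 changed sign (Irak3 +3827, +11651 and +18510, and Irak4 +22380).

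By perfectly mapped tags, 10 of the 62 hybrid members tested were higher and 5 lower in CB6F1/J LPS than in CB6F1/J control, beside 14.3% and 10.6% of all peaks (24.9% either way). The median log2 ratio was -0.13 over the members and -0.09 over all peaks tested. Of the 10 that were higher, 8 were at Irak3, which held 23 of the 62 members. By total tags, Irak3 +12879, +11212, +10559, +3015 and -2731 were called higher. So were Irak2 +11162 (2.81), +4574 (2.73), +18659 (1.69), +23217 (1.38), +21347 (1.20) and +15849 (1.08), so gains by that measure were not mainly at Irak3. Irak3 +8170 (-3.88), +18084 (-2.81) and +34001 (-1.25) were called lower by total tags. Irak2 -5617 (-2.42) and +24615 (-1.26) and Irak4 +1995 (-2.38) were called lower as well.

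**Figure D4:**
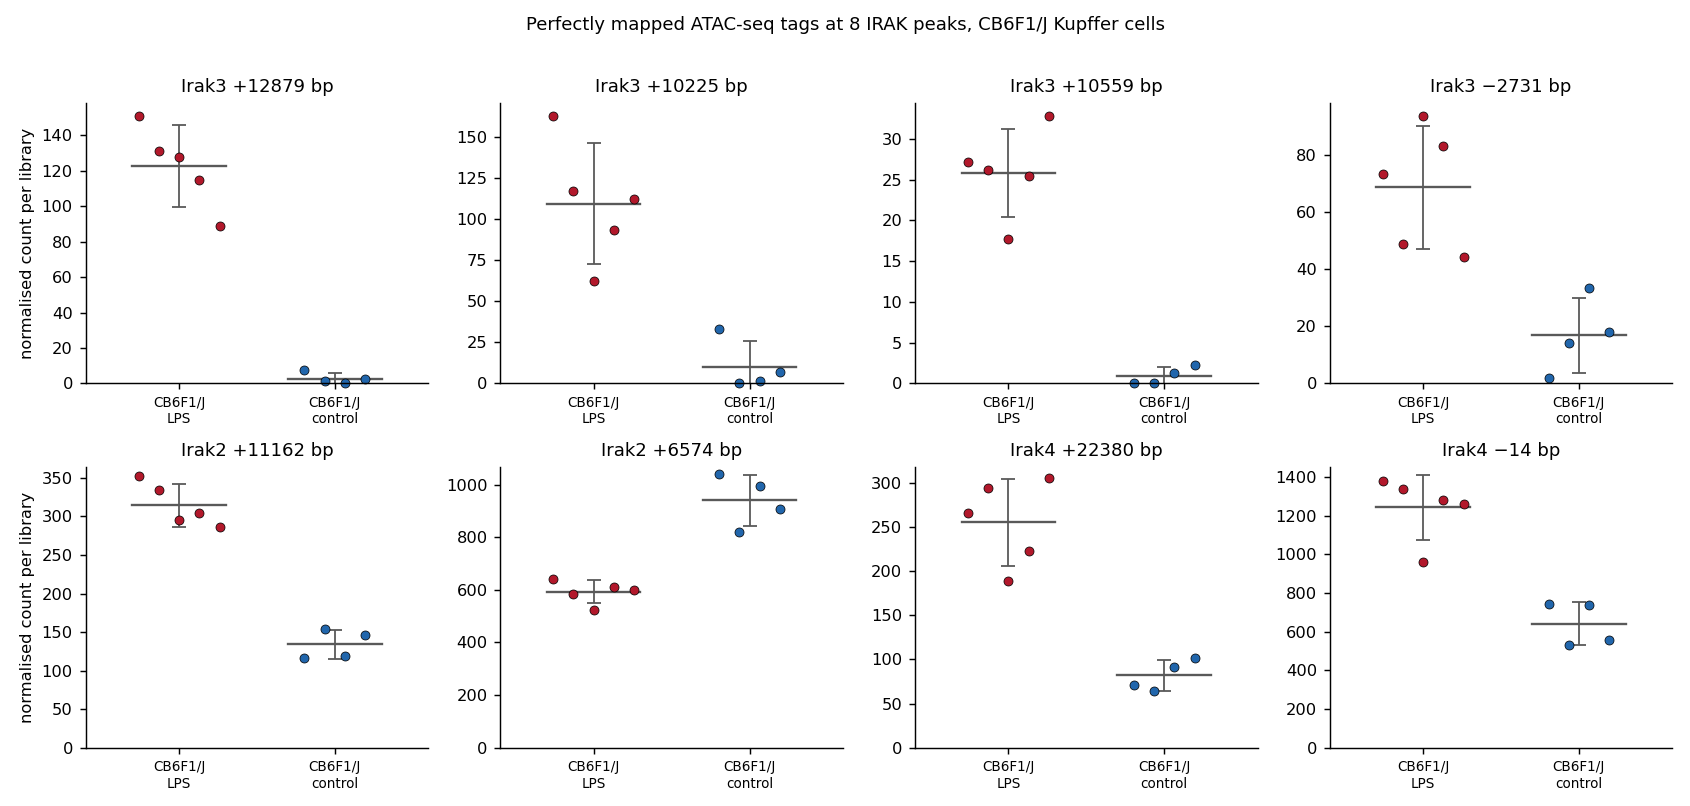
Normalised counts of perfectly mapped tags (y axis, linear, from 0) at 8 hybrid peaks in CB6F1/J LPS (left) and CB6F1/J control (right), with libraries as points, means as lines and SD as bars. By perfectly mapped tags, LPS libraries lie above all controls at the Irak3 peaks +12879, +10225, +10559 and -2731, at Irak2 +11162 and at both Irak4 peaks, and below them at Irak2 +6574, whose direction turns with total tags.

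Irak3 +12879, the hybrid match of the inbred peak +12881, had 151, 131, 128, 115 and 88.7 in CB6F1/J LPS, against 7.54, 1.40, 0 and 2.26 in CB6F1/J control. The groups were far apart, with a log2 ratio of 5.25 (SE 0.49, adjusted p 1.81e-09, edgeR). Irak3 +10225, matched to +10198, had 162, 117, 62.4, 93.1 and 112 in LPS, against 33.0, 0, 1.28 and 6.77 in control (3.28, SE 0.557, adjusted p 3.75e-05, and by total tags 1.02 with adjusted p 0.0694). Its lowest LPS library was above its highest control library, as it was for the neighbouring peak +10559, which had 27.2, 26.1, 17.7, 25.4 and 32.8 in LPS, against 0, 0, 1.28 and 2.26 in control (4.70, SE 0.947, adjusted p 0.000317, edgeR).

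Upstream, Irak3 -2731 had 73.2, 48.6, 93.6, 83.1 and 44.3 in CB6F1/J LPS, against 1.89, 14.0, 33.4 and 18.05 in CB6F1/J control, a log2 ratio of 2.05 (SE 0.493, adjusted p 0.00201). The groups did not overlap. Irak3 +3827, matched to +3832, had 118, 85.5, 71.7, 79.2 and 48.2 in LPS, against 30.2, 65.7, 41.1 and 21.4 in control, and 1 LPS library lay within the control range (1.04, SE 0.361, adjusted p 0.0285, edgeR). By total tags its ratio was -0.58. The other called gains of Irak3 were +3015 (1.95, total tags 1.99), +18510 (1.93, total tags -0.38) and +11651 (1.50, total tags -0.19). The calls at +3827 and +18510 held in 7 and 10 of 18 alternative settings, that at +3015 was lost with the LPS libraries of the second date alone and that at -2731 with those of the first date alone.

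Irak3 +35547, the hybrid match of the strain-biased +35566, had 332, 288, 228, 260.0 and 163 in CB6F1/J LPS, against 150.0, 205, 221 and 134 in CB6F1/J control. 4 of 5 LPS libraries lay above all controls, and the log2 ratio of 0.52 had an adjusted p of 0.0586 and was not called. The Irak3 promoter, +161, had 226, 245, 215, 218 and 157 in LPS, against 269, 271, 476 and 247 in control. All controls were above the LPS libraries, and the ratio of -0.57 (adjusted p 0.0278, edgeR) did not pass the fold threshold. By total tags this promoter went the other way, with 157 to 226 in LPS against 108 to 153 in control (0.62, adjusted p 0.00943, edgeR).

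The kinases gave called changes in the same libraries. Irak2 +11162, whose inbred counterpart is +11108, had 352, 334, 295, 305 and 286 in CB6F1/J LPS, against 116, 154, 119 and 147 in CB6F1/J control (1.23, SE 0.181, adjusted p 4.27e-06). Irak4 +22380, matched to +22394, had 266, 294, 188, 223 and 306 in LPS, against 70.7, 64.3, 91.1 and 102 in control (1.64, SE 0.22, adjusted p 1.16e-06, edgeR). Neither peak had overlapping groups. By total tags Irak4 +22380 overlapped between LPS and control (-0.080).

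5 Irak2 peaks were called lower in the hybrid. Irak2 +10721 had 4.53, 7.20, 2.08, 1.54 and 2.89 in CB6F1/J LPS, against 24.5, 14.0, 47.5 and 23.7 in CB6F1/J control (-2.87, SE 0.771, adjusted p 0.00528). The call at +10721 held in 16 of 18 alternative settings. The others were +28296 (-2.84), +19235 (-2.74), +1682 (-2.07) and +20956 (-1.74), with LPS means of 2.44 to 11.0 and control means of 18.2 to 46.5, and their calls held in 10 to 15 of 18. All 4 of these calls were lost under a replicate block, as was that of Irak3 +18510. None of the 5 Irak2 peaks was called by total tags. Their log2 ratios were then -0.99 at +10721, -1.49 at +28296, -2.04 at +19235, -0.10 at +1682 and -0.58 at +20956. A stronger Irak2 peak, +6574, had 642, 585, 524, 612 and 598 in LPS, against 1041, 821, 993 and 906 in control, and was lower without overlap but within the fold threshold (-0.67, adjusted p 0.000129, edgeR). By total tags it was higher without overlap, with 487 to 579 in LPS against 303 to 459 in control (0.55, adjusted p 0.00583, edgeR).

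Promoters of the kinases in the hybrid differed from one another. Irak1 +30 had 453, 409.7, 336, 416 and 423 in CB6F1/J LPS, against 427, 352, 389 and 413 in CB6F1/J control, with overlap and a log2 ratio of 0.04. Irak2 +81 had 454, 419.6, 398, 469 and 371 in LPS, against 635, 528, 671 and 485 in control, lower without overlap (-0.46, adjusted p 0.0153). By total tags it was higher without overlap, with 364 to 416 in LPS against 254 to 324 in control (0.43, adjusted p 0.0284, edgeR). Irak4 -14 had 1378, 1339, 959, 1281 and 1259 in LPS, against 741, 533, 737 and 558 in control. That promoter was higher in every LPS library, with a ratio of 0.95 (adjusted p 3.08e-06, edgeR) just inside the fold threshold, while its inbred counterpart overlapped between LPS and control. By total tags Irak4 -14 overlapped as well (0.26, adjusted p 0.169). Males of this cross carry the X chromosome of their BALB/cJ mother, so Irak1, which is X-linked, has a single parental copy in them.

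Alleles can be told apart only by tags that cover a variant. Such tags were present at 6 of the 61 autosomal members (9.84%), all at Irak3, against 20.9% of 213225 autosomal peaks. Only 3 of the 6 held 36 or more variant-spanning tags over all columns, namely Irak3 +3827 with 240.5, +12115 with 85 and +3015 with 56. The hybrid matches of the strain-biased inbred peaks, +35547 and +10225, held no variant-spanning tag, so the difference between strains at +35566 and +10198 could not be followed to the alleles. No allele comparison was possible at Irak1, Irak2 or Irak4.

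**Figure D5:**
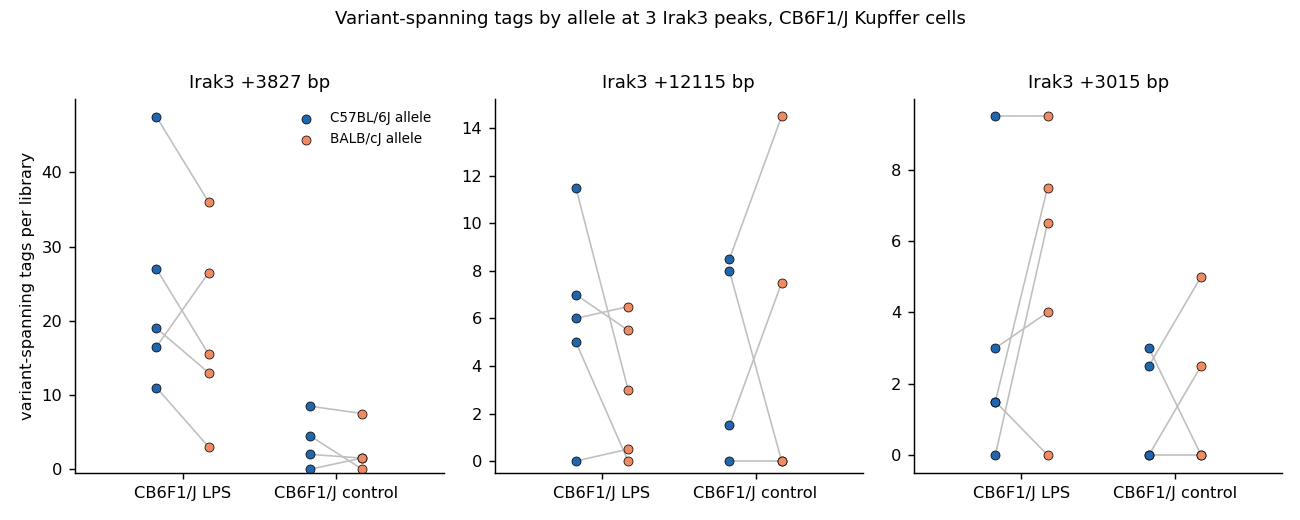
Variant-spanning tags (y axis, tags, linear, from 0) on the C57BL/6J allele and the BALB/cJ allele at Irak3 +3827, +12115 and +3015 in CB6F1/J LPS and CB6F1/J control, with lines joining the alleles of one library. Neither allele is above the other in all libraries of a group at any of the 3 peaks.

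At Irak3 +3827, CB6F1/J LPS libraries had 47.5, 27, 11, 19 and 16.5 tags on the C57BL/6J allele, against 36, 15.5, 3, 13 and 26.5 on the BALB/cJ allele. The C57BL/6J allele was ahead in 4 of 5 libraries. It was the single member deep enough for the allele test after LPS, and it was not called (log2 ratio 0.45, SE 0.509, adjusted p 0.627, edgeR's quasi-likelihood test with a term for each animal), beside 15.4% of all peaks tested. In CB6F1/J control the peak had 0, 4.5, 8.5 and 2 tags on the C57BL/6J allele, against 1.5, 0, 7.5 and 1.5 on the BALB/cJ allele, too few to test. No member could be tested for alleles in control, where 11.5% of all peaks tested were called.

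The sums over libraries at Irak3 +12115 were 29.5 tags on the C57BL/6J allele and 15.5 on the BALB/cJ allele in LPS, and 18 and 22 in control. At Irak3 +3015 they were 15.5 and 27.5 in LPS and 5.5 and 7.5 in control, in the same order of alleles. The direction between alleles thus differed from peak to peak and, at +12115, between treatments, on counts of this size.

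Summed over both alleles, variant-spanning tags could be tested for the LPS response at 4 members, of which 1 was called, beside 26.2% of all peaks tested. These tags are part of the perfectly mapped tags of the same libraries and are not a separate measure. Irak3 +3827 had 63.8, 39.8, 14.8, 24.8 and 38.4 normalised variant-spanning tags in CB6F1/J LPS, against 1.99, 6.83, 20.0 and 4.57 in CB6F1/J control, a log2 ratio of 2.14 (SE 0.536, adjusted p 0.000535, edgeR). 1 LPS library, replicate 3, lay below the highest control library. The ratios of Irak3 +3015 (0.83), +12115 (-0.60) and +8170 (-1.75) were not called. The call at +3827 was lost when only the LPS libraries of the second date (replicates 3 to 5) were used. It was also lost with total tags, where the log2 ratio was -0.58. For the difference of the LPS response between alleles, 2 members were tested and none was called (Irak3 +3827, 0.09 with SE 1.1 and adjusted p 1), as was none of all 18218 peaks tested (0.0%), with 1418 peaks at an unadjusted p under 0.05 and 67 calls by DESeq2.

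Whether a strain ratio differed from the allele ratio was tested over matched peaks with enough tags in both tables. No IRAK peak had enough variant-spanning tags for it in control or after LPS, where 4.71% and 3.29% of all peaks tested were called.

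The genes around the IRAK kinases in the pathway give the setting, in peaks called higher and lower after LPS, to be read beside the 12.3% higher and 8.07% lower of all peaks in C57BL/6J and the 16.2% and 11.3% in BALB/cJ. For receptors and their partners (16 genes, among them Tlr4, Cd14 and Il1r1), 27 peaks were higher and 8 lower of 169 tested in C57BL/6J, and 26 and 9 of 177 in BALB/cJ. Adaptors (Myd88, Tirap, Ticam1, Ticam2) had 1 higher and none lower of 19 in C57BL/6J, and 2 and 2 of 18 in BALB/cJ. Signal-passing proteins (11 genes, among them Traf6, Tab2 and Peli1) had 18 higher and 5 lower of 114 in C57BL/6J, and 32 and 9 of 121 in BALB/cJ. Inhibitors other than Irak3 (8 genes, among them Tnfaip3 and Il1rn) had 20 higher and 10 lower of 107 in C57BL/6J, and 29 and 6 of 105 in BALB/cJ.

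Some genes of these lists are given by name, chosen after their values were seen, beside the same shares of gains over the whole table (C57BL/6J 12.3%, BALB/cJ 16.2%). Il1rn, the antagonist of the interleukin-1 receptor, was called higher at 5 of 13 peaks in C57BL/6J and 10 of 13 in BALB/cJ. Tab2, which links TRAF6 to the kinase TAK1, was called higher at 8 of 33 and 15 of 35. Peli1, a ubiquitin ligase that acts on IRAK1, was called higher at 7 of 27 and 11 of 27. Myd88 had no called peak of 3 in either strain. For the difference of the LPS response between strains, none of these lists held a called peak.

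In controls, strain calls in the same lists are read beside the 7.29% of all peaks called either way. For C57BL/6J over BALB/cJ, receptors had none higher and 4 lower of 97 tested, signal-passing proteins 1 and 5 of 67, inhibitors 1 and none of 53, and adaptors none of 11. In the hybrid, beside 14.3% higher and 10.6% lower of all peaks, perfectly mapped tags gave 70 higher and 23 lower of 354 receptor peaks, 1 and 6 of 44 adaptor peaks, 42 and 18 of 245 peaks of signal-passing proteins and 48 and 11 of 229 inhibitor peaks in LPS against control.

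The promoters most like each IRAK promoter over the 17 inbred libraries, among 9892 promoter peaks and by Pearson r of log2(normalised count + 1), were Uchl5 (0.956), Mrpl32 (0.946) and Golga5 (0.945) for Irak1, and Rps3a1 (0.950), Lsm14a (0.947) and Btg1 (0.940) for Irak2. For Irak3 they were Mfsd13a (0.920), Chic2 (0.917) and the chemokine gene Cxcl2 (0.905), and for Irak4 they were Traf6 (0.820), Mad2l1 (0.815) and Zfp110 (0.790). The libraries share treatment, date and depth, so these values describe a shared profile over 17 libraries and no more.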

How the data were processed

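ATAC-seq libraries of sorted Kupffer cells were analysed from the deposited tables. Reads of 30 bp had been mapped by the authors to mm10-based strain genomes (Bowtie2), moved to mm10 positions (MMARGE) and counted around merged IDR peaks (HOMER). Tool versions are not given in the sources used here. The deposited values are counts of tags per window, described by the authors as 1000-bp, or expected counts where a tag can weigh 0.5. The width behind them is not known here. LPS columns of the inbred table hold whole counts. Its control columns and the hybrid table hold the expected counts. Such values were rounded up. The deposited IDR lists carry a score and were used only for the presence of a peak, and the deposited single-library peak files hold a signal that was not used. All per-sample columns of the tables were mapped to samples.

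Members and gene lists were chosen with earlier results of these data known. Each test ran over all peaks of a table with edgeR 4.0.16 (TMM, quasi-likelihood) in R 4.3.3, with p-values adjusted by Benjamini-Hochberg. All 17 inbred libraries entered one model of group means. Peaks were tested at a mean normalised count above 16 between strains or alleles and above 4 for LPS and for differences of responses. Inbred fits used the 96238 peaks on the nuclear chromosomes, allele fits used autosomes with a term for each animal, and perfectly mapped tags, adopted after the mismatch of the total-tag columns was seen, used autosomes and X. The direction of many hybrid ratios depends on this choice. P-values measure the spread between the libraries of a group. Named with full values were the promoter peak of each gene, every member called in a strain, allele or difference test, up to 4 called peaks each way for each gene and LPS comparison, and, for a gene with no other named peak, its strongest peak; other peaks named were chosen after their values were seen. Likeness of promoters used a pseudocount of 1. Alternatives were DESeq2 1.42.0, RLE and total-count scaling, no minimum, rounding down, only the compared groups, a replicate block, each library left out and, added after seeing the data, perfectly mapped tags and LPS libraries of 1 date. On simulated counts with 200 peaks changed 4-fold, the fit called 99.5% of them between strains in control, 85.5% for LPS in BALB/cJ and 100.0% between alleles after LPS. All simulated peaks had the same fixed spread, and the changed ones had means well above the minimum count. These shares therefore do not give the power at weaker or more variable peaks. A further marker list is not reported here.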

Additional observations from a re-analysis of the deposited data

Results flagged for a closer look

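In 81 groups of 4 or 5 libraries at the named peaks, 8 libraries stood apart from the rest of their group by Dixon's criterion, which chance alone meets in about 1 group in 20. In the inbred table these were Irak1 +18 in A/J control replicate 2 (126, others 97.7 to 102), Irak2 +16707 in C57BL/6J control replicate 1 (8.70, others 4.81 to 5.32) and Irak4 -12 in C57BL/6J control replicate 3 (401, others 259 to 271). BALB/cJ control replicate 1 was the highest of its group at Irak3 +11638 (14.5, others 6.73 to 8.05) and at Irak3 +12881 (7.91, others 0 to 0.0920). Irak3 -2710 had 0.83 in BALB/cJ control replicate 4, the deepest library, and 0 in the others. In the hybrid, Irak3 +161 had 476 in CB6F1/J control replicate 3 (others 247 to 271), and Irak4 -14 had 959 in CB6F1/J LPS replicate 3 (others 1259 to 1378). All are normalised counts.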

How the results depend on the processing

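Of 1676 recomputed log2 ratios of named peaks, 1535 kept their direction and their side of the thresholds, 57 lost and 18 gained a call, 61 changed sign with no adjusted p under 0.05 in either fit, and 5 others turned round. The 5 were Irak3 +3827 (-0.58), set against both the variant-spanning and the perfectly mapped tags, Irak4 +22380 (-0.080), Irak2 +81 (0.43) and Irak3 +161 (0.62), all with the total-tag columns of the hybrid, whose control values did not match the perfectly mapped tags. With no minimum count, called members were 2 instead of 1 in each control strain comparison, with Irak3 +10198 or, for A/J over BALB/cJ, Irak2 +16707 added, and 3 instead of 1 for C57BL/6J over BALB/cJ after LPS, with Irak3 +33936 and Irak4 +857 added. For C57BL/6J over BALB/cJ in control, fitting only the compared groups gave 2. With one library left out, the counts were 1 to 2 for C57BL/6J over BALB/cJ in control, 0 to 2 for A/J over C57BL/6J, 0 to 2 for C57BL/6J over BALB/cJ after LPS, 5 to 9 for LPS in C57BL/6J (7 with all libraries) and 6 to 11 for LPS in BALB/cJ (10 with all), lowest without BALB/cJ LPS replicate 2. For LPS in the hybrid, variant-spanning tags called 1 member, perfectly mapped tags 15, total tags 17, and variant-spanning tags with LPS libraries of the second date 0; the larger counts test more peaks, and the cause of the others was not tested.

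A replicate block gave 2 called members for A/J over BALB/cJ, for A/J over C57BL/6J and for C57BL/6J over BALB/cJ after LPS (1 each without it), 12 for LPS in BALB/cJ (10) and 11 for perfectly mapped tags in the hybrid (15), with 1, 7, 0 and 1 for C57BL/6J over BALB/cJ in control, LPS in C57BL/6J, the response difference and variant-spanning tags, as without it. Allele tests with no replicate block called 0 members. What libraries with the same number share is not known here. Their deviations from the group mean correlated with r of 0.0591 to 0.286 for C57BL/6J over BALB/cJ in control. For A/J over BALB/cJ r was 0.0538 to 0.375, and for A/J over C57BL/6J it was 0.0759 to 0.235. Libraries of unlike number had r of -0.322 to 0.208, -0.381 to 0.217 and -0.213 to 0.173, in the same order. Best matches were with the own number in 4, 5 and 5 of 8 libraries. A batch shared by such libraries was not tested, and only the replicate block held a term for it.

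Total-count scaling moved the median log2 ratio of all peaks for LPS in BALB/cJ to 0.06, against -0.07 by TMM. By DESeq2, perfectly mapped tags split into 30719 peaks higher and 32870 lower, against 30622 and 22610 by edgeR. Groups of 2 and 3 LPS libraries and the low variant-spanning counts set the limits of these comparisons.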
